A study of Mus musculus with 5 samples.

Results

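The genes described here are 10 NF-κB feedback genes, that is, genes that NF-κB switches on and whose products inhibit, form or read out the same pathway. They are Nfkbia, Nfkbie, Nfkbid, Nfkb1, Nfkb2, Relb, Tnfaip3, Birc3, Traf1 and Cd83, chosen by name as 10 of the 31253 genes in the deposited count tables, and all 10 were found in the 4 libraries with counts used here. The data are single-cell RNA counts from the BD Rhapsody system, in which each captured messenger RNA carries a unique molecular identifier (UMI). Every mouse was male and 8 to 10 weeks old. Unilateral ureteral obstruction (UUO) was made by tying and cutting the left ureter, a model of obstructive kidney injury, and sham surgery only exposed the ureter.

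The first kidney library is labelled PD-1-KO, taken 3 days after UUO from mice of the strain B6.Cg-Pdcd1tm1.1Shr/J, which carry a knockout allele of Pdcd1, the gene of the inhibitory receptor PD-1. The second kidney library is from wild-type (WT) mice 14 days after UUO. Genotype and day differ together between these libraries, so their effects cannot be told apart. The intestinal libraries are small intestine of WT mice 3 days after UUO and of WT mice after sham surgery, for which the labels give no day. The kidney cells are labelled as sorted innate lymphoid cells (ILCs) and the intestinal cells as sorted group 3 ILCs. Each group is 1 library, the labels do not say how many mice each holds, and no difference was tested. Of a further library, WT kidney 3 days after UUO, only the barcodes were used here.

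NF-κB proteins wait in the cytoplasm bound to inhibitors of the IκB family, or folded into the precursors p105 and p100. Signals from TNF family receptors, IL-1 family receptors and antigen receptors activate kinases that remove the inhibitors, and the freed dimers enter the nucleus. Among the genes they induce are new inhibitors, which is why transcripts such as Nfkbia and Tnfaip3 are commonly read as a record of recent NF-κB activity in lymphocytes. By role, Nfkbia and Nfkbie encode the cytoplasmic inhibitors IκBα and IκBε, and Nfkbid encodes the nuclear IκB protein IκBNS. Nfkb1 encodes p105, the precursor of p50, Nfkb2 encodes p100, the precursor of p52, and Relb encodes the subunit that pairs with p52 in the alternative pathway. Tnfaip3 encodes A20, a ubiquitin-editing enzyme that shuts down the signalling complex, while Birc3 (the ubiquitin ligase cIAP2) and Traf1 encode components of TNF receptor complexes. Cd83 encodes a surface glycoprotein of activated immune cells.

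The genes lie on 9 chromosomes of the GRCm38 assembly. Nfkbia is at chr12:55489410-55492647 on the minus strand, Nfkbie at chr17:45555703-45563169 on the plus strand and Nfkbid at chr7:30421732-30428746 on the plus strand. Nfkb1 lies at chr3:135584655-135691547 (minus), Nfkb2 at chr19:46304320-46312385 (plus) and Relb at chr7:19606217-19629438 (minus). Tnfaip3 lies at chr10:19000910-19015657 (minus), Birc3 at chr9:7848699-7873186 (minus), Traf1 at chr2:34941750-34961772 (minus) and Cd83 at chr13:43784775-43803132 (plus). Promoter sequence, 250 bases before to 50 bases after a transcription start in RefSeq (GRCm38.p6), was at hand for 7 of the genes with 12 start sites, and no sequence is shown for Nfkb1, Relb and Cd83. The promoters were searched on both strands for the 10-base κB consensus motif, the site that NF-κB dimers bind. It was found in 7 of the 12 promoters and in 5 of the 7 genes, namely Nfkbia, Nfkbie, Nfkbid, Nfkb2 and Tnfaip3, against 1480 of all 32851 promoters (4.51%) and 1388 of 27025 genes (5.14%). The windows of Birc3 and Traf1 do not hold these letters. A match is a description of the sequence and not a measured site. The promoters below are shown because they hold the motif in the feedback inhibitors and in the p100 precursor. They read 5′ to 3′ along the gene, and capitals mark the motif matches.
Nfkbia, chr12:55492598-55492897, minus strand: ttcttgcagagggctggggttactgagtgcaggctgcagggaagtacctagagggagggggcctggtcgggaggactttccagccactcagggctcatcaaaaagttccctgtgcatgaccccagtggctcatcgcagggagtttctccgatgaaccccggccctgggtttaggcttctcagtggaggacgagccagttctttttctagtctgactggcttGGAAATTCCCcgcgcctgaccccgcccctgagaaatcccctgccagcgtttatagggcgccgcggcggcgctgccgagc
Nfkbie, chr17:45555450-45555749, plus strand: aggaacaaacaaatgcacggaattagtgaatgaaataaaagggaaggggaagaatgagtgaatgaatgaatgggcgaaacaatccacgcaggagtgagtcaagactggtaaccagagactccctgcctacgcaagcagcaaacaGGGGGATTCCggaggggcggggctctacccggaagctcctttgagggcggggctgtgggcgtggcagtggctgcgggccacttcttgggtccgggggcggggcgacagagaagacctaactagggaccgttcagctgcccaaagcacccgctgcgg
Nfkbid, chr7:30422156-30422455, plus strand: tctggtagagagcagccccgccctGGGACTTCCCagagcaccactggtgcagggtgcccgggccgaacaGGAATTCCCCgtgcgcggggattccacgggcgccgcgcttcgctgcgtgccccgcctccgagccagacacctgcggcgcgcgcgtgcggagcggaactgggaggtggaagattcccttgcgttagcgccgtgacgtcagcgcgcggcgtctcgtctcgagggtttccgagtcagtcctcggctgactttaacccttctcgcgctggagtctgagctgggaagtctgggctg
Nfkb2, chr19:46304487-46304786, plus strand: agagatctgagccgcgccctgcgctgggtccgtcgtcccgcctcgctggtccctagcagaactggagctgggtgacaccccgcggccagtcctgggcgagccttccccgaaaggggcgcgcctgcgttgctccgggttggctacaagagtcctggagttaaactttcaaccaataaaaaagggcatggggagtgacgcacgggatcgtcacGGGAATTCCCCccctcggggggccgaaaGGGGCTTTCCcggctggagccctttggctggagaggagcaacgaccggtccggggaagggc
Tnfaip3, chr10:19015361-19015660, minus strand: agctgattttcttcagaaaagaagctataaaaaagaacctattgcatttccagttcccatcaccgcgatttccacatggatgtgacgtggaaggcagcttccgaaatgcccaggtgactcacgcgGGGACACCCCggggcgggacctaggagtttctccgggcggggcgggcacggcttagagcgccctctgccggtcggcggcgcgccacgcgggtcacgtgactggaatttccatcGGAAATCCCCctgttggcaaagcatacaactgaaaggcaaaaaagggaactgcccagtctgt
The match in Nfkbia starts 29 bases before the transcription start and reads on the opposite strand. That of Nfkbie starts 106 bases before it. The second listed start site of Nfkbid has matches 226 and 181 bases before it, and the first of Nfkb2 has 3 overlapping matches at 39 and 38 bases and another at 11 bases. The first start site of Tnfaip3 has matches 125 and 12 bases before it.

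The libraries held 7007 barcodes and 16466027 UMIs (kidney labelled PD-1-KO), 5282 and 10362652 (WT kidney, day 14), 5209 and 14756545 (UUO intestine), and 3621 and 8717372 (sham intestine), and the median kept cell had between 1824 and 2177 UMIs. Of 20619 kept cells, 11378 fell into a T cell, NK cell or ILC class by a gate on marker UMIs. Although the kidney sort is labelled ILCs, CD8 T cells were the largest class, with 2599 cells in the kidney labelled PD-1-KO and 684 in WT kidney. The other kidney classes held 628 and 464 ILC1s, 587 and 488 group 2 ILCs (ILC2s), 305 and 476 CD4 T cells, 163 and 234 T cells with Trdc (the γδ T cell receptor δ chain), and 219 and 167 natural killer (NK) cells, in the same order of libraries. T cells with Foxp3, the marker of regulatory T cells, numbered 23 in the kidney labelled PD-1-KO and 148 in WT kidney, and ILC3s 26 and 31, so neither class was compared between the kidneys. Of those kidney ILC3s, only 11.5% and 16.1% lay in ILC3 clusters. Intestinal ILC3s numbered 2014 after UUO and 1694 after sham surgery. By the gates, ILC1s had no Eomes UMI and ILC2s no Ncr1 or Eomes UMI, and the ILC2 marker Rxfp1 had 0 UMIs in ILC2s of both kidneys. Pdcd1 UMIs were present in the library labelled PD-1-KO, at 265 CPM (a gene's UMIs as a share of all UMIs, scaled to 1000000) in its CD8 T cells against 143 CPM in those of WT kidney, and at 188 CPM in its ILC1s against 14.3 CPM. Whether the sequenced 3′ ends fall within the deleted stretch is not given, so these levels check neither genotype nor label. The intestinal libraries shared 158 barcodes, and other pairs of libraries with barcode lists shared 22 to 27. Barcodes of the library labelled PD-1-KO were not analysed here.

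UMIs were summed over the cells of a class in a library and given as CPM, with an exact Poisson 95% interval. Ratios between 2 sums are log2 ratios with an exact binomial 95% interval. Both intervals cover counting error only, since UMIs amplified and sequenced together in 1 library are no replicates. A gene is called past the fold where the ratio is at least 1.5 times in either direction and both sides together have at least 100 UMIs. CPM of different genes are not compared, since the values are not per length.

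Among the T cell, NK cell and ILC classes of kidney, ILC2s carried the highest level of 8 of the 10 genes in both libraries, the exceptions being Cd83 and Traf1. Gated B cells, 71 in the kidney labelled PD-1-KO and 76 in WT kidney, are left out of these orders. They had more Birc3 (371 and 367 CPM) and Cd83 (358 and 578 CPM) than any of those classes and less Tnfaip3 (285 and 301 CPM), and in WT kidney their Nfkb2 (147 CPM) lay just above that of ILC2s. Among the same classes, CD8 T cells had the lowest level of 7 genes in the kidney labelled PD-1-KO and of 5 in WT kidney. Nfkbia had 3416 CPM in ILC2s of the kidney labelled PD-1-KO, followed by CD4 T cells at 1229, ILC1s at 1059, Trdc T cells at 1004, NK cells at 914 and CD8 T cells at 834. In WT kidney at day 14 it had 2679 CPM in ILC2s, 1586 in Foxp3 T cells, 779 in CD4 T cells, 756 in ILC1s, 607 in Trdc T cells, 552 in NK cells and 471 in CD8 T cells. ILC2s stood clear of the other T cell, NK cell and ILC classes in both kidneys, while ILC1s, Trdc T cells and NK cells of the kidney labelled PD-1-KO overlapped their neighbours within the intervals. Nfkbie had 314 CPM in ILC2s and 289 in ILC1s of the kidney labelled PD-1-KO, which overlapped, and 163 to 183 in CD4 T, NK and Trdc T cells, with CD8 T cells clearly lowest at 100.1. In WT kidney the ILC2s had 253 CPM of Nfkbie and the Foxp3 T cells 206, overlapping, and the order then ran through overlapping neighbours to 70.4 in CD8 T cells. Nfkbid followed the same course, with 711 CPM in ILC2s against 161 in CD8 T cells of the kidney labelled PD-1-KO, and 660 in ILC2s against 121 in CD8 T cells of WT kidney. Its ILC2s did not overlap any other class, and in WT kidney the Foxp3 T cells, at 450 CPM, stood between ILC2s and the rest.

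**Figure D1:**
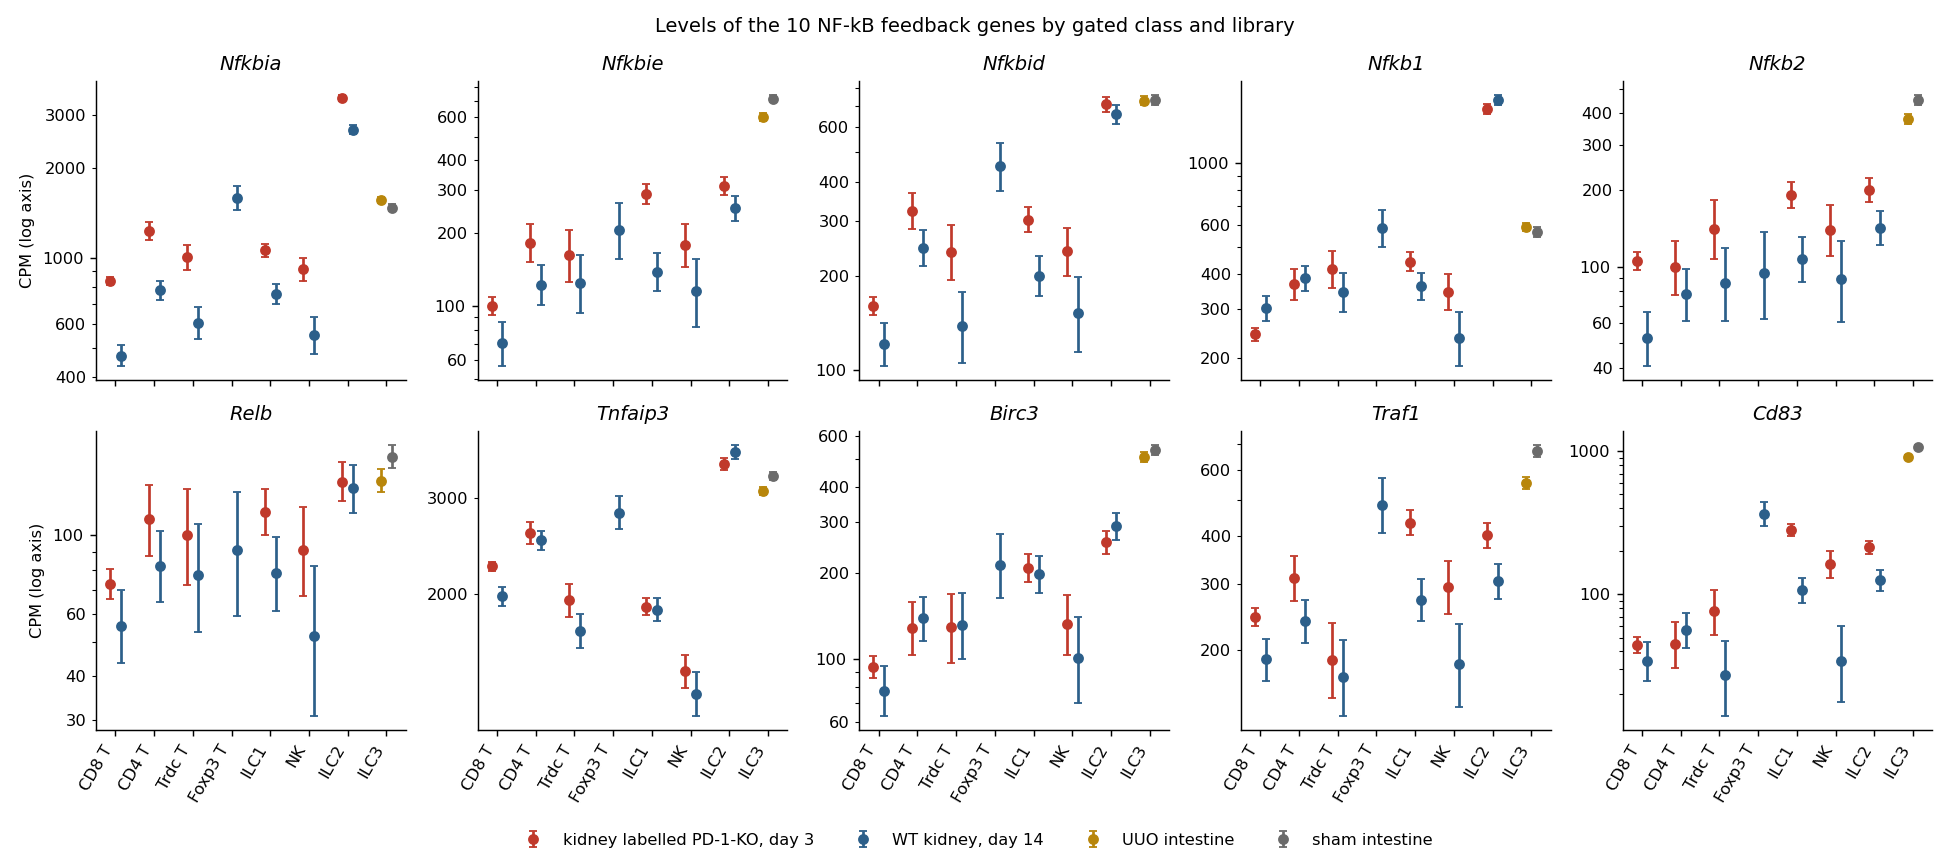
Level of each of the 10 genes (CPM, log axis) in each gated class, for the kidney labelled PD-1-KO at day 3 (red), WT kidney at day 14 (blue), UUO intestine (gold) and sham intestine (grey); points are summed counts of 1 library and bars exact Poisson 95% intervals. Among the T cell, NK cell and ILC classes of kidney, ILC2s lie highest for Nfkbia, Nfkbid, Nfkb1 and Tnfaip3, while Foxp3 T cells lie highest in WT kidney for Cd83 (366 CPM) and Traf1 (485 CPM).

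Of the genes that encode subunits, Nfkb1 separated the classes most plainly. It had 1562 CPM in ILC2s of the kidney labelled PD-1-KO and 245 to 444 in its other 5 classes, and 1684 CPM in ILC2s of WT kidney and 236 to 586 in its other 6 classes. ILC2s thus lay far above all other classes, whose neighbours mostly overlapped. Nfkb2 ranged from 99.4 CPM in CD4 T cells to 200.3 in ILC2s of the kidney labelled PD-1-KO, and from 52.4 in CD8 T cells to 142 in ILC2s of WT kidney, with every neighbouring pair overlapping. Relb covered a similar span, 72.8 CPM in CD8 T cells to 142 in ILC2s of the kidney labelled PD-1-KO and 51.8 in NK cells to 136 in ILC2s of WT kidney. Every neighbouring pair of Relb levels overlapped too, while the ends of its order did not overlap.

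Tnfaip3, the A20 gene, ranked the classes differently. It had 3468 CPM in ILC2s, 2592 in CD4 T cells, 2251 in CD8 T cells, 1952 in Trdc T cells, 1899 in ILC1s and 1444 in NK cells of the kidney labelled PD-1-KO. WT kidney gave 3651 CPM in ILC2s, 2824 in Foxp3 T cells and 2513 in CD4 T cells, then 1712 to 1982 in CD8 T cells, ILC1s and Trdc T cells, and 1311 in NK cells. NK cells were lowest of these classes in both kidneys with no overlap, and CD8 T cells, lowest for most of the other genes, stood in the middle of this order. Birc3 had 255 CPM in ILC2s and 209 in ILC1s of the kidney labelled PD-1-KO, against 93.5 to 132 in its other classes, and 291 and 197 in the same classes of WT kidney, against 77.4 to 213 in the others. Traf1 was led by ILC1s (435 CPM) and ILC2s (403 CPM) in the kidney labelled PD-1-KO, whose intervals overlapped, and by Foxp3 T cells (485 CPM) in WT kidney.

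Cd83 had an order of its own. In the kidney labelled PD-1-KO it was highest in ILC1s at 282 CPM, then 213 in ILC2s, 162 in NK cells, 76.5 in Trdc T cells, 45.3 in CD4 T cells and 44.6 in CD8 T cells. Among the same classes of WT kidney it was highest in Foxp3 T cells at 366 CPM, with 126 in ILC2s and 107 in ILC1s, and 27.2 to 56.5 in the other classes. ILC1s of the kidney labelled PD-1-KO and Foxp3 T cells of WT kidney did not overlap the class that followed.

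ILC2s were set against CD8 T cells of the same kidney. In each kidney all 10 genes were past the fold and higher in ILC2s, against 34.9% of the 7134 genes with enough UMIs (11.7% higher) in the kidney labelled PD-1-KO and 34.4% of 4145 genes (12.5% higher) in WT kidney. The median log2 ratio of the 10 genes was 1.55 in the kidney labelled PD-1-KO and 1.86 in WT kidney, while the median over all genes was -0.18 in both. Nfkb1 had log2 ratios of 2.68 (2.58 to 2.77) and 2.48 (2.32 to 2.64), Nfkbid 2.15 (2.02 to 2.27) and 2.45 (2.19 to 2.70), and Nfkbia 2.03 (1.98 to 2.09) and 2.51 (2.38 to 2.64), in the same order of libraries. The 3 genes were thus at least 4 times higher in ILC2s in both kidneys. Cd83 had 2.26 (2.02 to 2.50) and 1.87 (1.37 to 2.39), Nfkbie 1.65 and 1.84, and Birc3 1.45 and 1.91. The genes of the alternative pathway differed less, with Nfkb2 at 0.93 and 1.44 and Relb at 0.96 and 1.29. The smallest ratios were those of Traf1, 0.72 and 0.69, and Tnfaip3, 0.62 and 0.88. The interval of Traf1 in WT kidney, 0.45 to 0.93, reaches below the fold, as does that of Tnfaip3 in the kidney labelled PD-1-KO, 0.58 to 0.67. The immediate early and dissociation genes, which handling of tissue can induce, summed to 11645 CPM in ILC2s against 4802 CPM in CD8 T cells of the kidney labelled PD-1-KO, and to 13174 CPM against 4263 CPM in WT kidney. Of the 10 genes on that list, 9 and 10 were past the fold and higher in ILC2s, and their part in the result was not tested. Of the NF-κB subunits, kinases and adaptors, 2 of 15 were past the fold and higher and 1 lower in ILC2s of the kidney labelled PD-1-KO, and 3 of 10 higher and 1 lower in those of WT kidney. Other inhibitors and regulators had 5 of 11 higher and 2 lower in the kidney labelled PD-1-KO, and 4 of 10 higher and 2 lower in WT kidney.

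**Figure D2:**
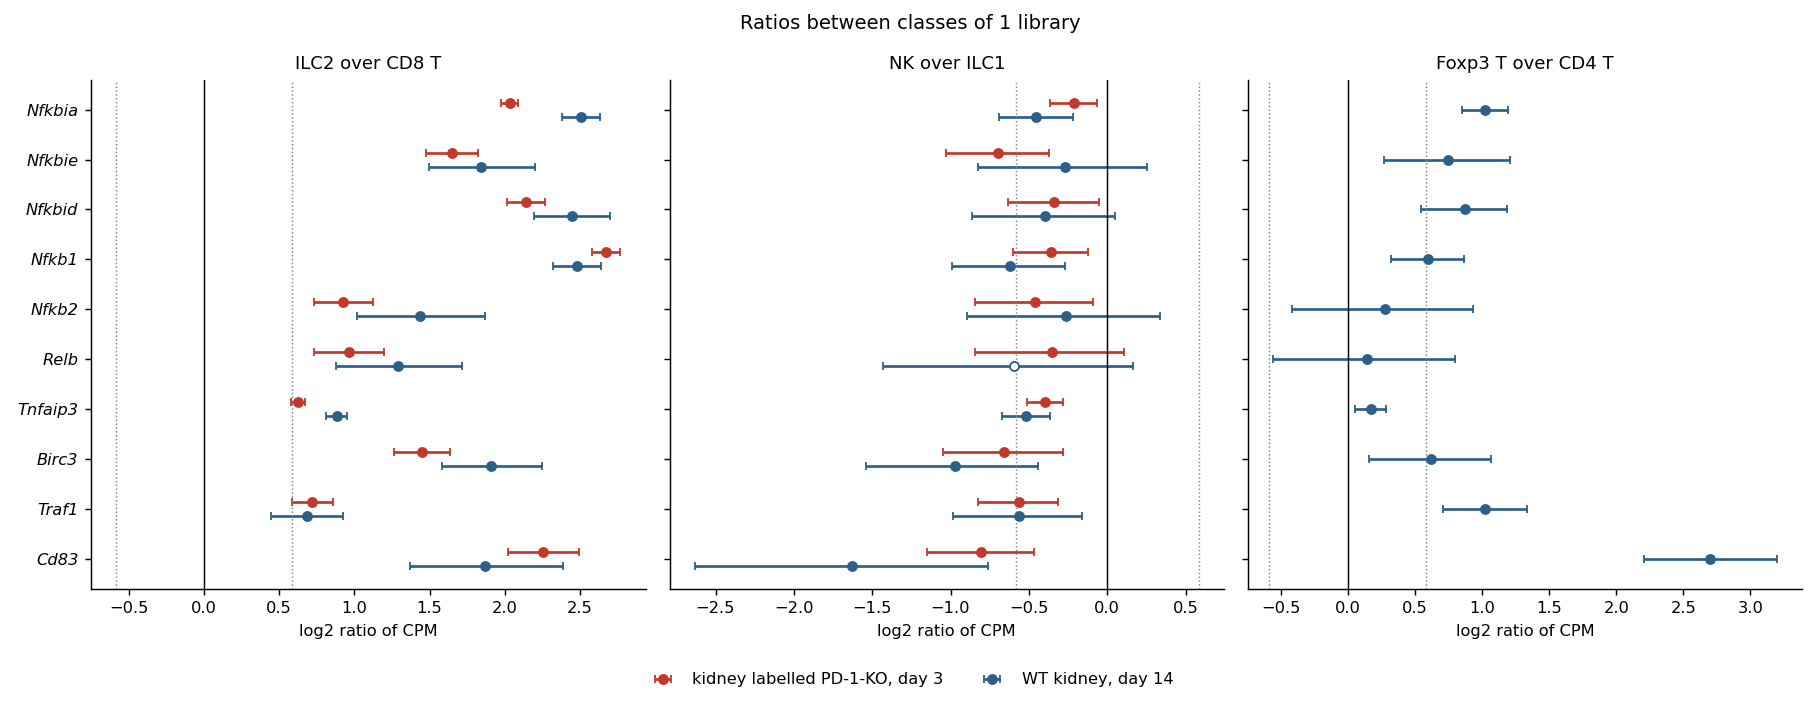
Log2 ratio of CPM between classes of the same library for each of the 10 genes, ILC2 over CD8 T and NK over ILC1 in both kidneys and Foxp3 T over CD4 T in WT kidney; bars are exact binomial 95% intervals, dotted lines mark 1.5-fold and open circles rest on under 100 UMIs. All points for ILC2 over CD8 T lie right of 0, from 0.62 to 2.68, and all points for NK over ILC1 lie left of 0.

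NK cells and ILC1s are the 2 type 1 innate classes, told apart here by Eomes and by further markers asked of ILC1s only. All 10 genes were lower in NK cells of the kidney labelled PD-1-KO, and 3 of the 10 were past the fold (11.5% of 3692 genes, 6.47% lower). Cd83 had 162 CPM in its NK cells against 282 in its ILC1s, a log2 ratio of -0.80 (-1.15 to -0.47). Nfkbie had a ratio of -0.69 (-1.03 to -0.37) and Birc3 -0.66 (-1.05 to -0.28). In WT kidney all 9 genes with enough UMIs were lower in NK cells and 3 were past the fold (13.0% of 2568 genes, 8.22% lower): Cd83 with -1.63 (-2.63 to -0.76), Birc3 with -0.97 (-1.54 to -0.44) and Nfkb1 with -0.62 (-0.99 to -0.27). Thus Cd83 and Birc3 were past the fold in both kidneys. The median log2 ratio of the tested members was -0.43 in the kidney labelled PD-1-KO and -0.52 in WT kidney, with -0.01 over all genes in each. Of gated NK cells, 28.3% in the kidney labelled PD-1-KO and 18.0% in WT kidney lay in the ILC1 cluster rather than the NK cluster. With the NK cells of the NK cluster and the ILC1s of the ILC1 cluster only, 8 of the 10 genes were past the fold in the kidney labelled PD-1-KO. There Cd83 had 47.1 CPM in NK cells against 282 in ILC1s, a log2 ratio of -2.58 (-3.40 to -1.86), Nfkbie had -1.24 and Traf1 -1.16. The same restriction in WT kidney left the count of genes past the fold within 1.5 times of 3. The share of all genes past the fold is not given for the matched cells of either kidney.

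Foxp3 T cells of WT kidney were set against CD4 T cells without Foxp3 in the same library. All 10 genes were higher in Foxp3 T cells and 7 were past the fold (22.0% of 2499 genes, 10.1% higher), with a median log2 ratio of 0.68 against -0.03 over all genes. Cd83 had 366 CPM in Foxp3 T cells against 56.5 in CD4 T cells, a log2 ratio of 2.70 (2.21 to 3.20). Nfkbia had 1586 CPM against 779, or 1.03 (0.85 to 1.20), and Traf1 485 against 239, or 1.02 (0.71 to 1.33). Nfkbid followed at 0.87, Nfkbie at 0.75, Birc3 at 0.62 and Nfkb1 at 0.59. The 3 genes not past the fold were Nfkb2 (0.27), Tnfaip3 (0.17) and Relb (0.14), the intervals of Nfkb2 and Relb including 0. The difference in Cd83 was thus the widest of the 10. It was wider where gate and cluster matched, at 439 CPM against 17.8, or 4.62 (3.78 to 5.58). All 10 genes were left out of the variable genes that built the clusters. Cd83 had a UMI in 35.1% of Foxp3 T cells (median 1726.5 UMIs a cell) against 4.62% of CD4 T cells (1881.5 UMIs). With each cell thinned to 1000 UMIs, the shares were 23.2% (exact binomial interval 16.6 to 31.1%) and 3.86% (2.31 to 6.04%). CD8 T cells of the library had a Cd83 UMI in 1.24% of thinned cells, at a median of 1724.5 UMIs. The amount of stray RNA was not estimated. B cells, which express Cd83, had it in 41.0% of thinned cells, and the B cell marker list summed to 299.8 CPM in Foxp3 T cells against 130.1 CPM in CD4 T cells. In Foxp3 T cells and in CD4 T cells 4 of the 6 markers were seen, with Ms4a1 at 0 UMIs in both. The immediate early list summed to 10313 CPM against 6717 CPM. Receptors of the TNF and IL-1 families, which feed the pathway, had 6 of 8 past the fold and higher and 2 lower in Foxp3 T cells, and subunits, kinases and adaptors 2 of 8 higher. The part of these cells and genes in the result was not tested.

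The kidney labelled PD-1-KO at day 3 was then set against WT kidney at day 14, class by class. In ILC1s all 10 genes were higher in the library labelled PD-1-KO and 5 of them were past the fold (9.28% of 4169 genes), with a median log2 ratio of 0.59 against -0.04 over all genes. Cd83 had 282 CPM against 107, a log2 ratio of 1.40 (1.08 to 1.74). Nfkbie, the IκBε gene, had 289 CPM against 139, or 1.06 (0.77 to 1.36). Nfkb2 had 192 CPM against 107, or 0.84 (0.51 to 1.19). These were the 3 widest ratios in ILC1s, an activation marker, a cytoplasmic inhibitor and the p100 precursor. Traf1 had 435 CPM against 272, or 0.68 (0.46 to 0.89), and Nfkbid 304 against 201, or 0.60 (0.35 to 0.86). With ILC1s of the ILC1 cluster only, Nfkbid had 0.56, just under the fold. Relb at 0.58, Nfkbia at 0.49 and Nfkb1 at 0.29 were higher without being past the fold. Birc3 (209 CPM against 197) and Tnfaip3 (1899 against 1875) had ratios of 0.08 and 0.02, with intervals that include 0. Between 93.3% and 94.9% of the ILC1s lay in the ILC1 cluster. After thinning, 15.4% of ILC1s of the library labelled PD-1-KO had a Cd83 UMI (23.9% unthinned, median 2270.5 UMIs) against 6.62% in WT kidney (10.1%, 1869.5 UMIs), and CD8 T cells had one in 3.07% (median 1904 UMIs) against 1.24%.

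**Figure D3:**
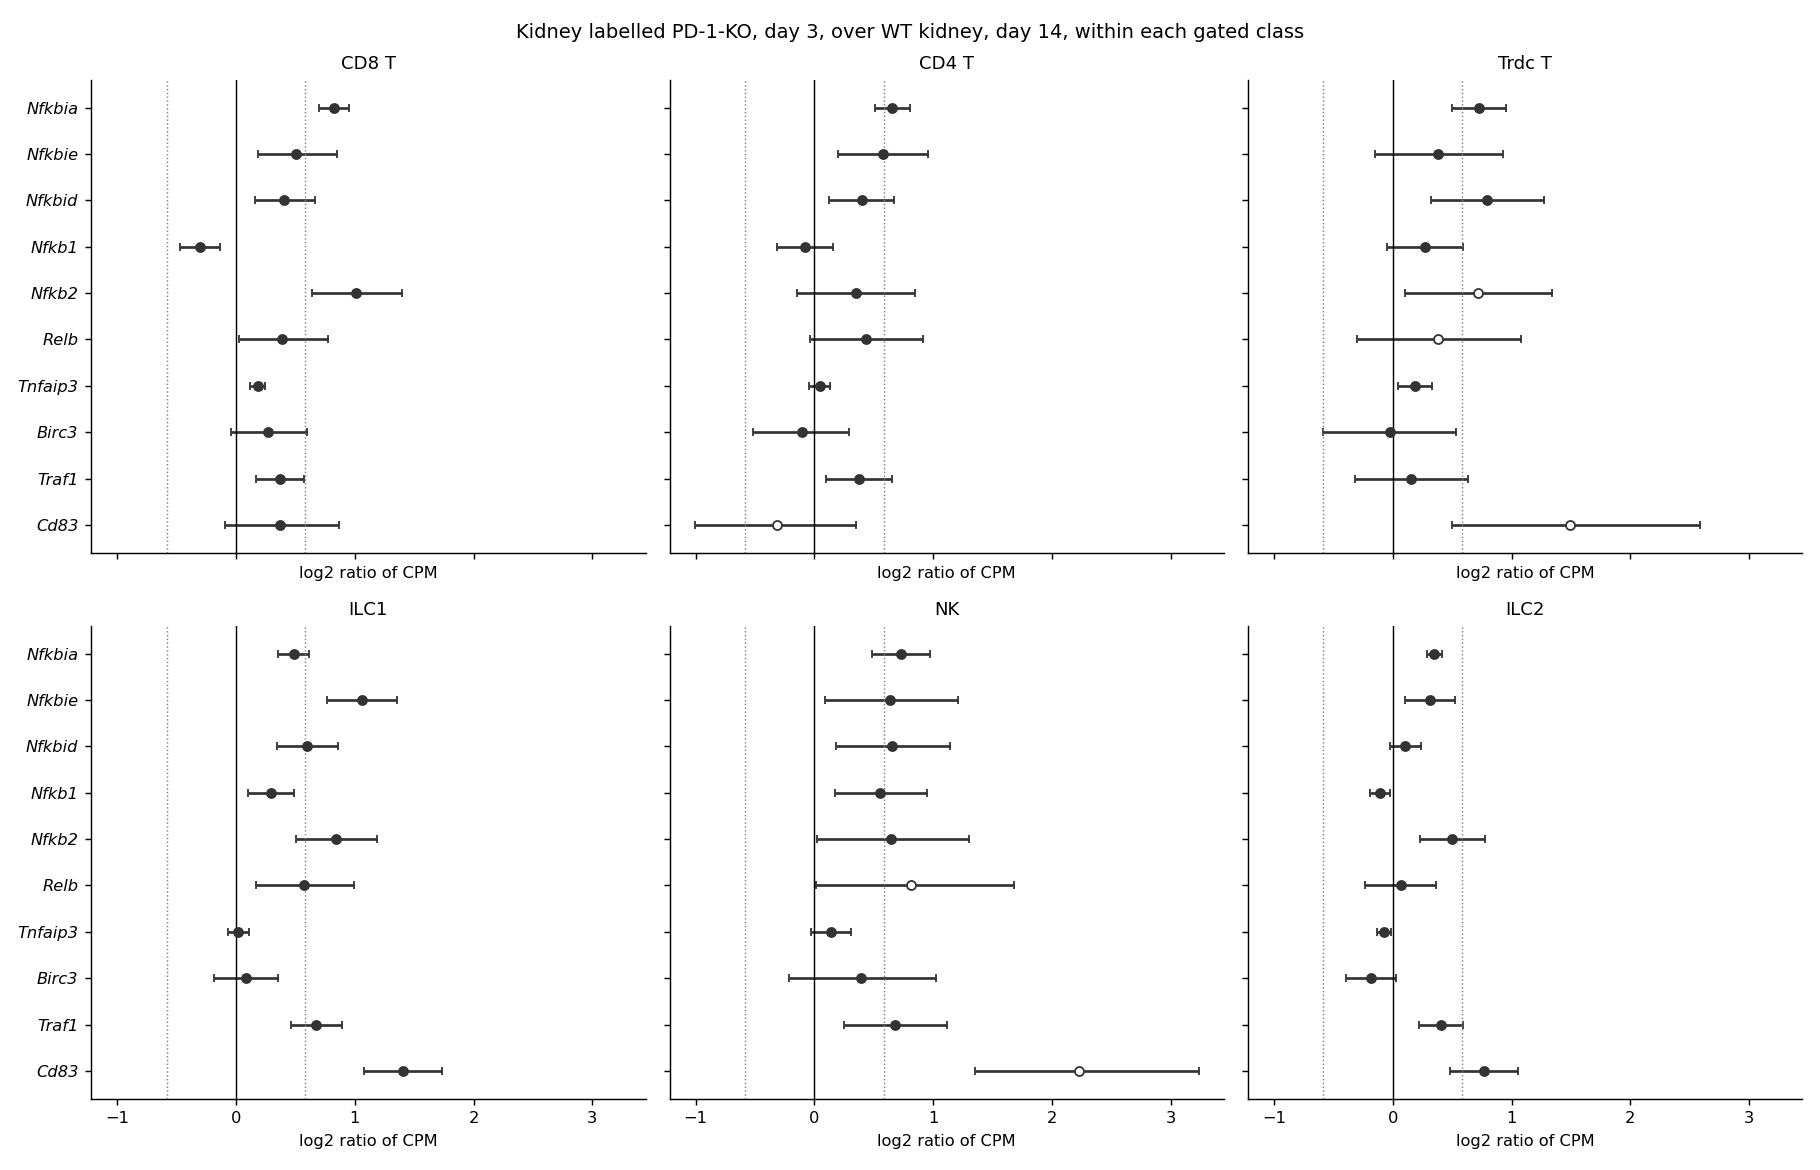
Log2 ratio of CPM, kidney labelled PD-1-KO at day 3 over WT kidney at day 14, for each of the 10 genes in 6 classes; bars are exact binomial 95% intervals, dotted lines mark 1.5-fold and open circles rest on under 100 UMIs. Nfkbia lies right of 0 in all 6 classes, from 0.35 in ILC2s to 0.83 in CD8 T cells, while Tnfaip3 stays between -0.07 and 0.19.

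NK cells showed the same direction for all 8 genes with enough UMIs, and 5 were past the fold (8.42% of 1757 genes), with a median log2 ratio of 0.64 against -0.02 over all genes. They were Nfkbia (914 CPM in the kidney labelled PD-1-KO against 552 in WT kidney, log2 ratio 0.73, 0.48 to 0.98), Traf1 (294 against 184, 0.68), Nfkbid (240.1 against 152, 0.66), Nfkb2 (140 against 89.1, 0.65) and Nfkbie (179 against 115, 0.64). These counts depended on which cells were taken as NK cells. With only those in the NK cluster, 149 cells against 135, 4 genes had enough UMIs and none was past the fold. Nfkbia then had 701 CPM against 517, or 0.44 (0.13 to 0.75), and Tnfaip3 -0.04. Cd83 had 162 CPM in gated NK cells of the library labelled PD-1-KO against 34.5 in those of WT kidney on 99 UMIs in all, but 47.1 CPM against 30.2 on 24 UMIs within the NK cluster.

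In T cells Nfkbia was the gene that was past the fold in every class compared. CD8 T cells had 834 CPM in the kidney labelled PD-1-KO against 471 in WT kidney, a log2 ratio of 0.83 (0.70 to 0.95). CD4 T cells had 1229 CPM against 779, or 0.66 (0.51 to 0.80), and Trdc T cells 1004 against 607, or 0.73 (0.50 to 0.95). Nfkbia was also higher in ILC1s, NK cells and ILC2s of the library labelled PD-1-KO, so its ratio lay above 0 in all 6 classes. In CD8 T cells 2 of the 10 genes were past the fold (12.1% of 6975 genes), the other being Nfkb2 with 105 CPM against 52.4, or 1.01 (0.64 to 1.40). Of the remaining 8 genes, 7 were higher with ratios of 0.18 to 0.51, and Nfkb1 was lower, at 245 CPM against 302, or -0.30 (-0.47 to -0.14). The median of the 10 ratios was 0.38, against -0.02 over all genes. The CD8 T gate did not hold the same clusters in both kidneys: 85.8% of the cells labelled PD-1-KO and 56.3% of the WT cells lay in cluster 0, and 17.0% of the WT cells in cluster 3, which also held 175 Trdc T cells. Among gated CD8 T cells the ILC3 marker list summed to 364 CPM against 981 CPM and the Trdc T list to 229 CPM against 522 CPM. In the CD8 T cells of CD8 T clusters Nfkbia had a ratio of 0.78 (0.63 to 0.92).

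In CD4 T cells 1 of 9 genes was past the fold, near the background of 11.6% of 3108 genes, and 7 of the 9 ratios were above 0. Nfkbie had 183 CPM in the kidney labelled PD-1-KO against 123 in WT kidney, or 0.57 (0.20 to 0.95), just under the fold, and Nfkb1, at -0.08, and Birc3, at -0.11, had intervals that include 0. With CD4 T cells of the CD4 T cluster only, 3 of 8 genes were past the fold: Nfkbia (0.90), Nfkbie (0.70) and Traf1 (0.64). The share of all genes past the fold in that smaller selection is not given. In Trdc T cells 2 of 7 genes were past the fold (11.9% of 1683 genes), Nfkbid being the second with 239 CPM against 138, or 0.79 (0.32 to 1.28). Only 40.5% of those cells labelled PD-1-KO and 41.0% of the WT cells lay in the cluster led by Trdc T cells, and with these alone 2 genes had enough UMIs and neither was past the fold, Nfkbia having 0.43 (0.09 to 0.77).

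ILC2s, which had the highest levels, differed least between the kidneys. Of the 10 genes only Cd83 was past the fold (7.32% of 4346 genes), with 213 CPM in the kidney labelled PD-1-KO against 126 in WT kidney, or 0.76 (0.48 to 1.05). Nfkb2 had 0.50, Traf1 0.40, Nfkbia 0.35 (0.29 to 0.41) and Nfkbie 0.31. Nfkb1, at 1562 CPM against 1684, or -0.11 (-0.19 to -0.02), Tnfaip3, at 3468 against 3651, or -0.07 (-0.13 to -0.02), and Birc3, at -0.19 with an interval that includes 0, were the 3 below 0.

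Markers of other cells moved with the library. Kidney epithelium markers summed to between 14.9 and 39.3 CPM in the 6 classes of the kidney labelled PD-1-KO, with 4 to 6 of 6 genes seen, against 0 to 3.13 CPM in WT kidney, with 0 to 3 of 6. In ILC1s the T cell list summed to 1408 CPM against 1093 CPM, with 7 of 7 genes seen in each, and the B cell list to 366 CPM against 299 CPM, with 6 of 6 and 4 of 6 genes seen and Cd79a and Ms4a1 at 0 in WT kidney. The dendritic list went the other way, at 304 CPM against 396 CPM, with Clec9a at 0 in WT kidney. In NK cells the B cell list summed to 294 CPM against 204 CPM, with 4 of 6 and 2 of 6 genes seen, the T cell list to 1159 CPM against 748 CPM, with 7 of 7 and 6 of 7 seen, and the ILC2 list to 391 CPM against 201 CPM, with 7 of 8 and 4 of 8 seen. In Trdc T cells the ILC2 list summed to 844 CPM against 356 CPM, with 7 of 8 and 5 of 8 seen and Il5 and Il13 at 0 in WT kidney, and its member Il1rl1, the IL-33 receptor gene, had 132 CPM against 13.6 CPM. Median depth was also higher in the library labelled PD-1-KO, for example 2270.5 UMIs an ILC1 against 1869.5. The part of these cells and of depth in the results was not tested.

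Other genes of the pathway were followed by lists. Among all genes with enough UMIs, 12.1% were past the fold in CD8 T cells, 11.6% in CD4 T and 11.9% in Trdc T cells. For ILC1s, NK cells and ILC2s the shares were 9.28%, 8.42% and 7.32%. The first list held 16 subunits, kinases and adaptors of NF-κB. Of its genes with enough UMIs, 0 of 15 were past the fold in CD8 T cells, 0 of 9 in CD4 T and 0 of 4 in Trdc T cells. Higher were 1 of 12 in ILC1s, 1 of 7 in NK cells and 2 of 12 in ILC2s. Those of ILC2s were Ripk1, a kinase of TNF receptor signalling, with a log2 ratio of 0.81, and Map3k14, the NIK gene of the alternative pathway, with 0.70. The gene in ILC1s and NK cells was Rel, which encodes the subunit c-Rel. It had 330 CPM in ILC1s labelled PD-1-KO against 192 in WT ILC1s, a log2 ratio of 0.78 (0.53 to 1.04), and 205 CPM against 97.8 in NK cells, or 1.07 (0.50 to 1.67). Among the other inhibitors and regulators, 3 of 11 were higher in CD8 T cells, 1 of 9 in CD4 T cells, 2 of 6 in Trdc T cells, 2 of 10 in ILC1s, 1 of 5 in NK cells and 0 of 10 in ILC2s, and none was lower. Zc3h12a, which encodes the ribonuclease Regnase-1, was past the fold in 4 of the 6 classes, with ratios of 0.79 in CD8 T cells, 0.80 in CD4 T cells, 0.73 in Trdc T cells and 0.59 in ILC1s. Nfkbiz, the gene of the nuclear protein IκBζ, had 0.78 in CD8 T cells and 0.95 in Trdc T cells, and Tnip1, the gene of an A20-binding protein, had 0.87 in ILC1s.

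NF-κB target genes outside the 10 were past the fold and higher for 5 of 13 in CD8 T cells, 1 of 6 in CD4 T cells, 0 of 2 in Trdc T cells, 2 of 9 in ILC1s, 0 of 3 in NK cells and 2 of 9 in ILC2s, and lower for 1, 2, 0, 0, 1 and 0. In ILC1s they were Gadd45b, a stress-response gene, with 139 CPM in the kidney labelled PD-1-KO against 50.7 in WT kidney, or 1.46 (0.99 to 1.95), and Pim1, a survival kinase, with 1274 against 789, or 0.69. The chemokine gene Ccl4 went in both directions, with 162 CPM against 288 in NK cells and 78.1 against 32.7 in ILC2s. For TNF and IL-1 family ligands, 2 of 6 were higher and 2 lower in CD8 T cells, 1 of 4 higher and 2 lower in CD4 T cells, 1 of 4 higher and 1 lower in ILC2s, and none of 2, 1 and 1 past the fold in ILC1s, NK cells and Trdc T cells. Of their receptors, 5 of 11 were higher and 1 lower in CD8 T cells, 1 of 7 higher and 3 lower in CD4 T cells, 1 of 4 lower in Trdc T cells, 1 of 6 higher in ILC1s and in NK cells, and 0 of 8 past the fold in ILC2s. The receptor in ILC1s was Tnfrsf9, which encodes 4-1BB, with 536 CPM against 343, or 0.65 (0.46 to 0.84). The immediate early list had 2 of 10 genes higher in CD8 T cells, 1 higher and 2 lower of 10 in CD4 T cells, 1 of 9 lower in Trdc T cells, 1 of 10 higher in ILC1s, 1 of 9 higher in NK cells and 0 of 10 past the fold in ILC2s, and its sum in ILC1s was 6178 CPM against 5593 CPM. Glucocorticoid-induced genes had 1 of 7 higher and 1 lower in CD8 T cells, 2 of 5 higher in CD4 T cells, 1 of 6 lower in ILC2s (Tsc22d3, 169 CPM against 375) and none of 3, 5 and 3 past the fold in Trdc T cells, ILC1s and NK cells.

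In intestinal ILC3s, UUO and sham libraries were close. None of the 10 genes was past the fold, against 4.28% of 7879 genes, and their median log2 ratio was -0.16 with 8 of 10 below 0, against 0.00 over all genes. Traf1 had 553 CPM after UUO against 672 after sham surgery, a log2 ratio of -0.28 (-0.36 to -0.20), and Nfkbie 600.3 against 717, or -0.26 (-0.33 to -0.18). Nfkb2 had 380 CPM against 452, or -0.25, Cd83 915 against 1078, or -0.24, and Relb 143 against 167, or -0.23. These 5 genes were lower after UUO beyond counting error, by less than 1.5 times. Nfkbia was higher, at 1560 CPM against 1470, or 0.09 (0.04 to 0.14), Tnfaip3 was lower, at 3097 against 3303, or -0.09 (-0.13 to -0.06), and Nfkbid, Nfkb1 and Birc3 had intervals that include 0. Leaving out the 15 and 28 ILC3s whose barcode was found in another library gave 0.09 for Nfkbia, -0.25 for Cd83 and -0.29 for Traf1. Of the ILC3s, 99.4% and 99.1% lay in ILC3 clusters. Intestinal epithelium markers summed to 1026 CPM in ILC3s after UUO against 400.5 CPM after sham surgery, with 6 of 6 genes seen in each, and their part in the result was not tested.

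Intestinal ILC3s had more CPM of Nfkbie, Nfkb2, Birc3, Traf1, Cd83, Nfkbid and Relb than the T cell, NK cell, ILC and B cell classes of at least 50 cells in either kidney. Cd83 had 915 and 1078 CPM in ILC3s after UUO and sham surgery against at most 578 CPM in kidney (B cells), and Birc3 509 and 537 CPM against at most 371 (B cells). Nfkbid, at 730 and 736 CPM, and Relb, at 143 and 167 CPM, lay close to ILC2s of the kidney labelled PD-1-KO, which had 711 and 142 CPM. For both genes the intervals overlapped those of these ILC2s, after UUO and after sham surgery. The interval of Traf1 after UUO overlapped that of WT Foxp3 T cells. For Nfkbia and Nfkb1 the intestinal ILC3s, at 1560 and 1470 CPM and at 592 and 566 CPM, lay below kidney ILC2s. Tissue and library cannot be told apart in these values. Gated ILC1s and ILC2s of intestine lay mostly in ILC3 clusters, 91.9% and 78.0% after UUO, and were not compared.

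**Figure D4:**
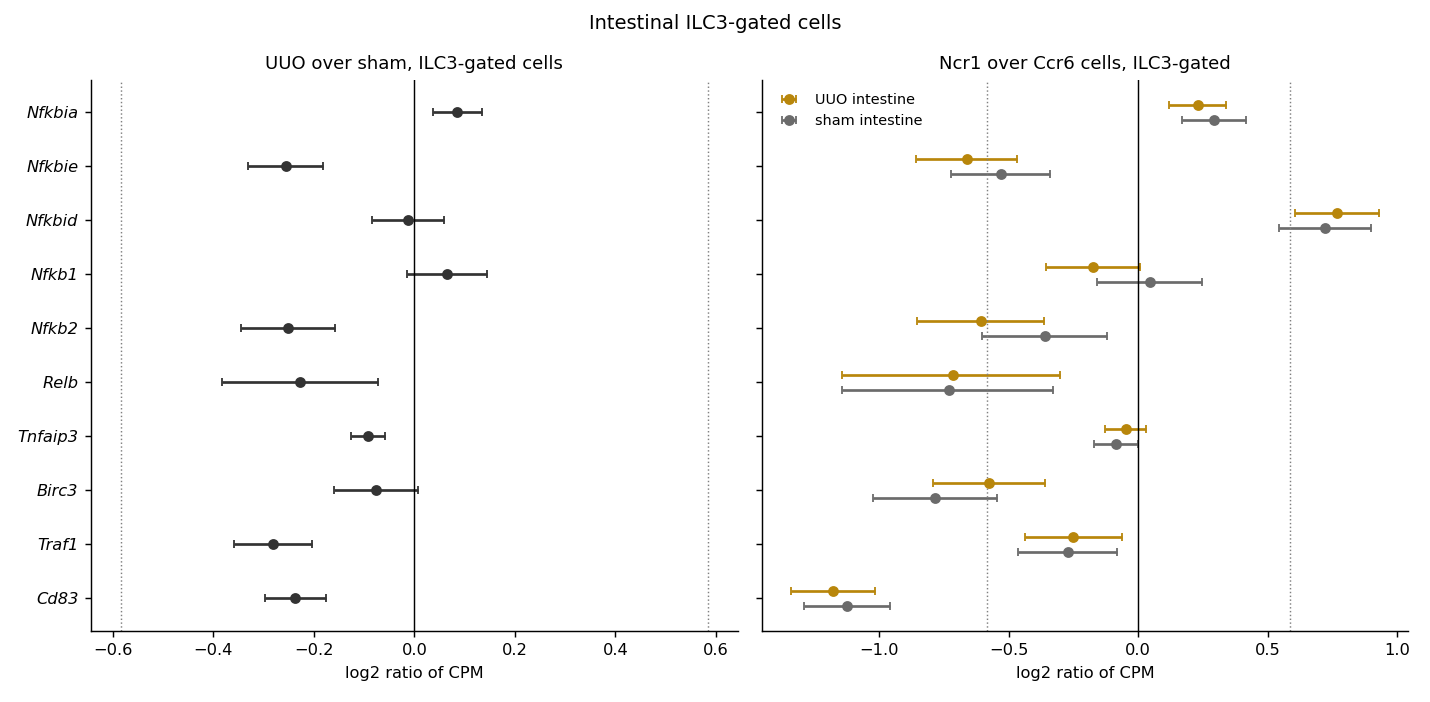
Log2 ratio of CPM for each of the 10 genes in intestinal ILC3s, for UUO over sham and for Ncr1 ILC3s over Ccr6 ILC3s within the UUO and the sham library; bars are exact binomial 95% intervals and dotted lines mark 1.5-fold. Every UUO over sham point lies inside the dotted lines, and Cd83 lies at -1.18 and -1.12 for Ncr1 over Ccr6.

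Among the pathway lists in ILC3s, past the fold were 0 of 15 subunits, kinases and adaptors, 0 of 11 other inhibitors and regulators, 0 of 6 ligands and 0 of 10 receptors. Of 13 other target genes 2 were lower after UUO, the chemokine genes Ccl4 with 12.2 CPM against 36.5, or -1.58 (-2.04 to -1.14), and Ccl3 with 7.38 against 16.1, or -1.12 (-1.75 to -0.52). The immediate early list had 1 of 10 higher (Egr1, 0.84) and a sum of 19320 CPM against 18344 CPM. Of 7 glucocorticoid-induced genes 3 were higher after UUO, namely Fkbp5 (0.94), Sgk1 (0.89) and Zbtb16 (0.63).

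ILC3s include cells with the receptor NKp46 (Ncr1) and lymphoid-tissue-inducer-like cells with the chemokine receptor CCR6, and the contrast of these subsets was added after the data had been seen. Ncr1 ILC3s numbered 223 in each library and Ccr6 ILC3s 431 after UUO and 316 after sham surgery. In the UUO library 5 of the 10 genes were past the fold (20.2% of 3495 genes), 4 lower and 1 higher in Ncr1 ILC3s, and in the sham library 4 were (17.7% of 2849 genes), 3 lower and 1 higher. Cd83 had 569 CPM in Ncr1 ILC3s against 1287 in Ccr6 ILC3s after UUO, a log2 ratio of -1.18 (-1.34 to -1.02), and 669 against 1459 after sham surgery, or -1.12 (-1.29 to -0.96). Relb had -0.72 and -0.73, and its levels were 96.2 CPM against 158 and 124 CPM against 205. Nfkbid went the other way, with 940 CPM against 552, or 0.77 (0.61 to 0.93), after UUO, and 967 against 587, or 0.72 (0.54 to 0.90), after sham surgery. Both libraries thus gave Cd83 and Relb lower and Nfkbid higher in Ncr1 ILC3s, past the fold. Nfkbie (-0.66 and -0.53) and Nfkb2 (-0.61 and -0.36) were past it after UUO only, and Birc3 (-0.58 and -0.78) after sham surgery only, and whether the libraries differ in this was not tested. Nfkbia had 0.23 and 0.29, Traf1 -0.25 and -0.27, Tnfaip3 -0.05 and -0.08, and Nfkb1 -0.17 and 0.05. The median of the 10 was -0.41 after UUO and -0.32 after sham surgery, against -0.02 and 0.00 over all genes. The immediate early list summed to 15381 CPM against 20367 CPM after UUO and 14036 CPM against 19024 CPM after sham surgery, and its part in the result was not tested.

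Likeness among the 10 genes was described over the 22 sums of a class in a library with at least 50 cells, on log2(CPM + 10). These sums share libraries and depth, and they are not independent. They include kidney B cells, intestinal epithelium and the gated intestinal ILC1s and ILC2s that lie mostly in ILC3 clusters. Over the 45 pairs Pearson's r ran from -0.01 (Tnfaip3 and Cd83) to 0.91 (Nfkbie and Nfkb2), with a median of 0.68. Tnfaip3 was most like Traf1 (0.89), and Cd83 most like Nfkbie (0.85). Against the mean of the other 9, Nfkbid (0.93), Nfkbie (0.91), Relb (0.89) and Nfkbia (0.82) were most alike, followed by Nfkb2 (0.79), Birc3 (0.74), Nfkb1 (0.74) and Traf1 (0.69), while Cd83 (0.62) and Tnfaip3 (0.58) stood furthest off. Among 6808 other genes, those most like the mean of the 10 were Kdm6b (0.96), which encodes a histone demethylase, the helicase gene Dhx40 (0.94), Pim1 (0.94), Zc3h12a (0.94) and Rnf19b (0.93).

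**Figure D5:**
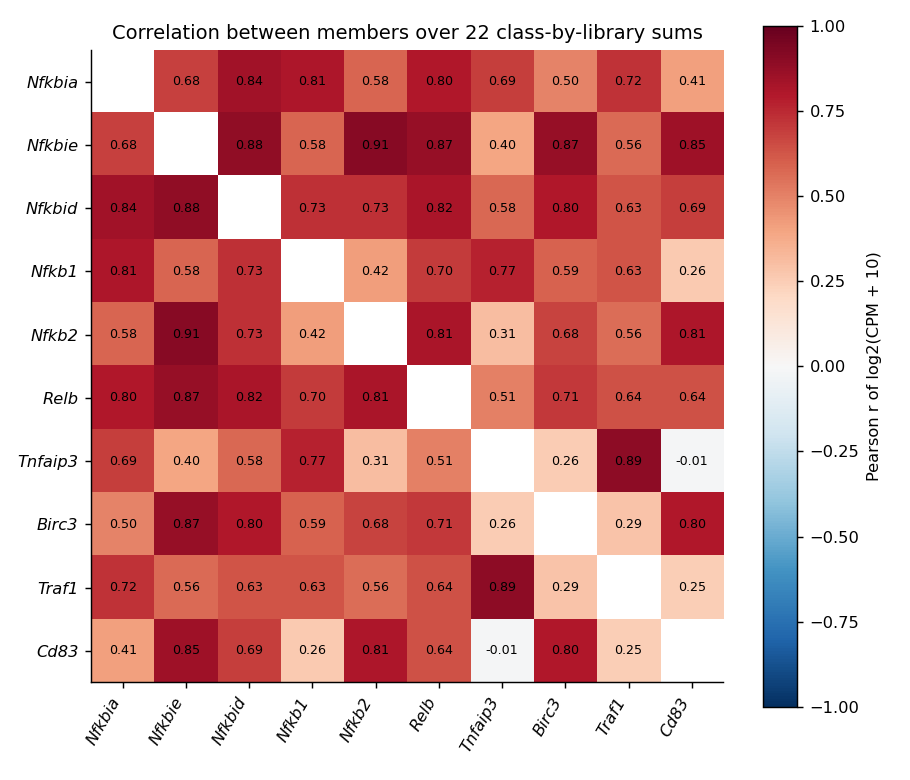
Pearson's r of log2(CPM + 10) for each of the 45 pairs of the 10 genes over 22 class-by-library sums, drawn as a colour grid. The palest cells are those of Tnfaip3 with Cd83 (-0.01), and Nfkbie with Nfkb2 (0.91) is the most alike pair.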

How the data were processed

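Single-cell libraries of sorted kidney and intestinal cells were, per the labels, made on BD Rhapsody. The authors deposited UMI counts per gene and cell. Named in the submitters' processing notes are the mm10 build and the tools CASAVA 1.8, Seurat and UMI-tools. Aligner and cell caller were not given in the sources used here. Of WT kidney at day 3 only the barcodes were used, to count those shared between libraries. The table of WT kidney at day 14 has no gene names of its own, and its rows were named by the gene order of the other libraries. Over genes, its values correlated with those of the kidney labelled PD-1-KO at 0.992, against 0.21 with rows shifted by 1. The members and the gene lists were chosen with earlier results of these data known.

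A cell was kept from 500 UMIs and 250 genes upward, if its mitochondrial share did not exceed 20%. Gates used UMIs of marker genes per cell. T cells had at least 2 UMIs of Cd3d, Cd3e and Cd3g together, and ILCs and NK cells at most 1. Further positive and negative markers then set the classes (Cd8a and Cd8b1, Cd4, Trdc, Foxp3, Eomes with Ncr1 and Klrb1c, Gata3 with Il1rl1 and Il17rb, and Il23r, Kit, Il1r1 and Ccr6). Some marker genes are not reported here. A cell that met more than 1 gate was left out. No doublet caller was run, and leaving out the 5% of cells with the most UMIs was tried instead. Cells were also clustered (2000 variable genes with the members left out, 30 principal components, 15 neighbours, resolution 1), and gate and cluster were compared. Classes of at least 50 cells were used. UMIs were summed per class and library and divided by the class total to give CPM (the share times 1000000). Intervals are exact 95% Poisson and Clopper-Pearson intervals. Shares of cells with a UMI were also computed after thinning each cell to 1000 UMIs. With 1 library a group no test was possible, so the tests and permutations that replicates would allow were not run. All 10 members are named. For pathway lists the rule was the 4 widest ratios, or fewer, in each comparison between libraries, and for likeness the 5 genes closest to the members' mean. The functions for ratios and intervals were tested on simulated Poisson counts. Analyses used Python 3.11.15, scanpy 1.11.5, leidenalg 0.10.2, SciPy 1.17.1, NumPy 2.4.6 and pandas 2.3.3.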

Additional observations from a re-analysis of the deposited data

How the results depend on the processing

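With 1 library a group, no replicate could be left out, and no paired analysis was possible because each group is 1 library. Depth limits Relb, Cd83 and Nfkb2 in the small T and NK classes, where sums hold under 100 UMIs. Both comparisons that need Foxp3 T cells of the library labelled PD-1-KO were not run, since it held 23. Over 14 comparisons, 140 counts of members past the fold were recomputed, of which 113 stayed within 1.5 times and 27 did not. The share of all genes past the fold is given for the main settings only, so the recomputed counts stand without it. Of 1064 recomputed ratios, 1003 lay inside the interval of the reported value and 0 reversed a called direction. All 133 lay inside with at most 10% mitochondrial UMIs, without shared barcodes, and with mitochondrial and ribosomal genes left out of the CPM. Those settings moved no ratio by more than 0.1114 on the log2 scale, so the pooled count leans on near repeats of the reported values. Inside the interval were 110 of 133 where gate and cluster had to match and 116 of 133 with stricter gates. In the same order, 129 and 128 of the 133 kept their sign. Leaving out shared barcodes left the cells of the library labelled PD-1-KO unchanged. The largest shifts on the log2 scale were 1.93 where gate and cluster had to match and 1.15 without the 5% deepest cells. A 2-fold threshold gave 1 gene in CD8 T cells labelled PD-1-KO over WT, 0 in CD4 T cells, 0 in Trdc T cells, 2 in ILC1s, 0 in NK cells and 0 in ILC2s. It also gave 6 for ILC2 over CD8 T in the kidney labelled PD-1-KO, 0 and 1 for NK over ILC1 in the kidney labelled PD-1-KO and WT kidney, 3 for Foxp3 T over CD4 T, and 1 for Ncr1 over Ccr6 ILC3s in each library. Cells whose gate and cluster matched gave 3 in CD4 T cells, 0 in Trdc T cells, 0 in NK cells and 8 for NK over ILC1 in the kidney labelled PD-1-KO. Stricter gates gave 1 in Trdc T cells and 3 in NK cells. Without the deepest cells there were 2 in CD4 T cells and 2 in ILC2s. Leaving mitochondrial and ribosomal genes out of the CPM gave 2 in CD4 T cells, as did centring on the median gene. The mean of per-cell CPM gave 2 in CD4 T cells, 3 in NK cells, 2 in ILC2s and 3 for Ncr1 over Ccr6 ILC3s after UUO. With no minimum of UMIs, 4 genes were past the fold in Trdc T cells. The 2-fold threshold and the minimum change the count by construction. For the other settings the cause was not tested.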
